A study of Mus musculus with 25 samples.

Results

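The genes described here are 54 components of the Wnt pathway among the 55385 genes of the count tables. They are 18 ligands, 10 frizzled receptors, 5 co-receptors or other receptors, 10 secreted inhibitors, 5 nuclear effectors and 6 target or feedback genes, taken by symbol from a list of pathway components by role. Each symbol was found under a single Ensembl identifier. A further 67 genes of the pathway (secretion factors, the destruction complex, co-factors of β-catenin, planar polarity genes and other targets) were listed as its surroundings.

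RNA-seq was performed on 25 untreated, sub-confluent cultures, 5 from each of 5 murine melanoma cell lines, which the labels name as biological replicates. WT31 cells were derived from Tyr::NrasQ61K/°; INK4a-/- mice, in which the tyrosinase promoter drives an activated Nras. B16F10 luc2 is a purchased line that is described as carrying many mutations, Trp53 among them. RET cells come from mice that overexpress human RET under the metallothionein-I promoter, HCmel12 cells from a primary melanoma of an HGF-CDK4(R24C) mouse, and D4M cells from mice with Tyr::CreER and BrafCA. The study grouped WT31, B16F10 luc2 and RET as high and intermediate metastatic (HIM) melanoma and D4M and HCmel12 as low metastatic (LM) melanoma according to their colonization of the liver. Each model is a single cell line, so that the genotype of a line cannot be told apart from any other property of that line. WT31, B16F10 luc2 and RET shared RPMI medium with fetal calf serum, whereas HCmel12 cells were kept in a supplemented RPMI and D4M cells in Advanced DMEM/F-12 with less serum. In every comparison with D4M or HCmel12, line and culture medium therefore cannot be told apart.

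Wnt proteins are lipid-modified ligands that bind frizzled receptors. Together with the co-receptors Lrp5 and Lrp6 they stop the destruction complex from degrading β-catenin (Ctnnb1), which then enters the nucleus and activates target genes with the transcription factors of the LEF/TCF family. Ligands such as Wnt5a also signal without β-catenin through the receptors Ror1, Ror2 and Ryk. Secreted proteins of the DKK and SFRP families and Wif1 block ligands or co-receptors, and targets such as Axin2, Notum, Apcdd1 and Znrf3 are themselves feedback inhibitors. In the melanocyte lineage canonical Wnt signalling is known for its role in the specification of melanocytes from the neural crest, where Mitf is among its targets, and Wnt5a is known from dedifferentiated, invasive melanoma cells.

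Between 24199083 and 25843286 estimated counts were assigned to genes per library. Levels are given as CPM, counts per 1000000 counts of a library after scaling with TMM factors, as mean ± SD over 5 libraries unless stated otherwise. A sum of 3 counts over the libraries of a line was taken as the detection floor and covers counting error only, since the reads carry no molecular identifiers. The melanocyte markers Tyr, Tyrp1, Dct, Pmel, Mlana, Mitf and Sox10 summed to between 12026 and 30205 CPM in the libraries of WT31, B16F10 luc2, RET and HCmel12, but to between 6.54 and 59.6 CPM in D4M. In D4M the fibroblast or mesenchymal markers Col1a1, Col1a2, Col3a1, Pdgfra and Pdgfrb were instead between 47.4 and 472 CPM on average, whereas Dcn was at most 0.511 CPM in a D4M library and Lum had no counts in D4M. All 7 markers of that list together summed to between 707 and 1386 CPM, compared with at most 102 CPM in a library of any other line. The melanoma label of D4M was thus not matched by defining melanocyte markers, and the part of this state in any result on D4M was not tested. D4M replicate 1 held more melanocyte RNA than the other D4M libraries (27 CPM of Tyrp1 against at most 2.85 CPM), and HCmel12 replicate 4 held more Tyr (30.1 CPM against at most 9.13 CPM). Without these 2 libraries, the 64 log2 fold changes between the highest line of a gene and its second or lowest line kept their direction and call.

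Only part of the pathway was expressed in culture. Of the 54 members, 36 passed the filter on low counts and 35 reached a mean of 1 CPM in at least 1 line. Sfrp4 passed the filter with a highest line mean of 0.608 CPM (WT31) and at most 0.874 CPM in a library. Most of the members without a test were ligands (12 of 18), namely Wnt1, Wnt2, Wnt2b, Wnt3, Wnt3a, Wnt7a, Wnt8b, Wnt9b, Wnt10a, Wnt10b, Wnt11 and Wnt16. The others were Fzd10, the inhibitors Dkk1, Dkk4, Sfrp2 and Sfrp5, and the ubiquitin ligase gene Rnf43. No counts were found for Wnt3a and Fzd10 in any of the 25 libraries, and 14 members had at most 3 counts in every library. The highest means among the untested members were 0.901 ± 0.438 CPM of Wnt11 and 0.495 ± 0.175 CPM of Wnt2b, both in WT31.

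The number of members with a mean of at least 1 CPM was 30 in WT31, 26 in D4M, 25 in HCmel12, 20 in RET and 19 in B16F10 luc2. All 5 nuclear effectors and all 5 expressed target genes were above 1 CPM in WT31. In contrast, B16F10 luc2 and RET each had 4 effectors and 2 targets above that level. Ligands were sparse in every line, with 1 expressed ligand in RET, 2 each in WT31, B16F10 luc2 and HCmel12, and 3 in D4M.

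**Figure D1:**
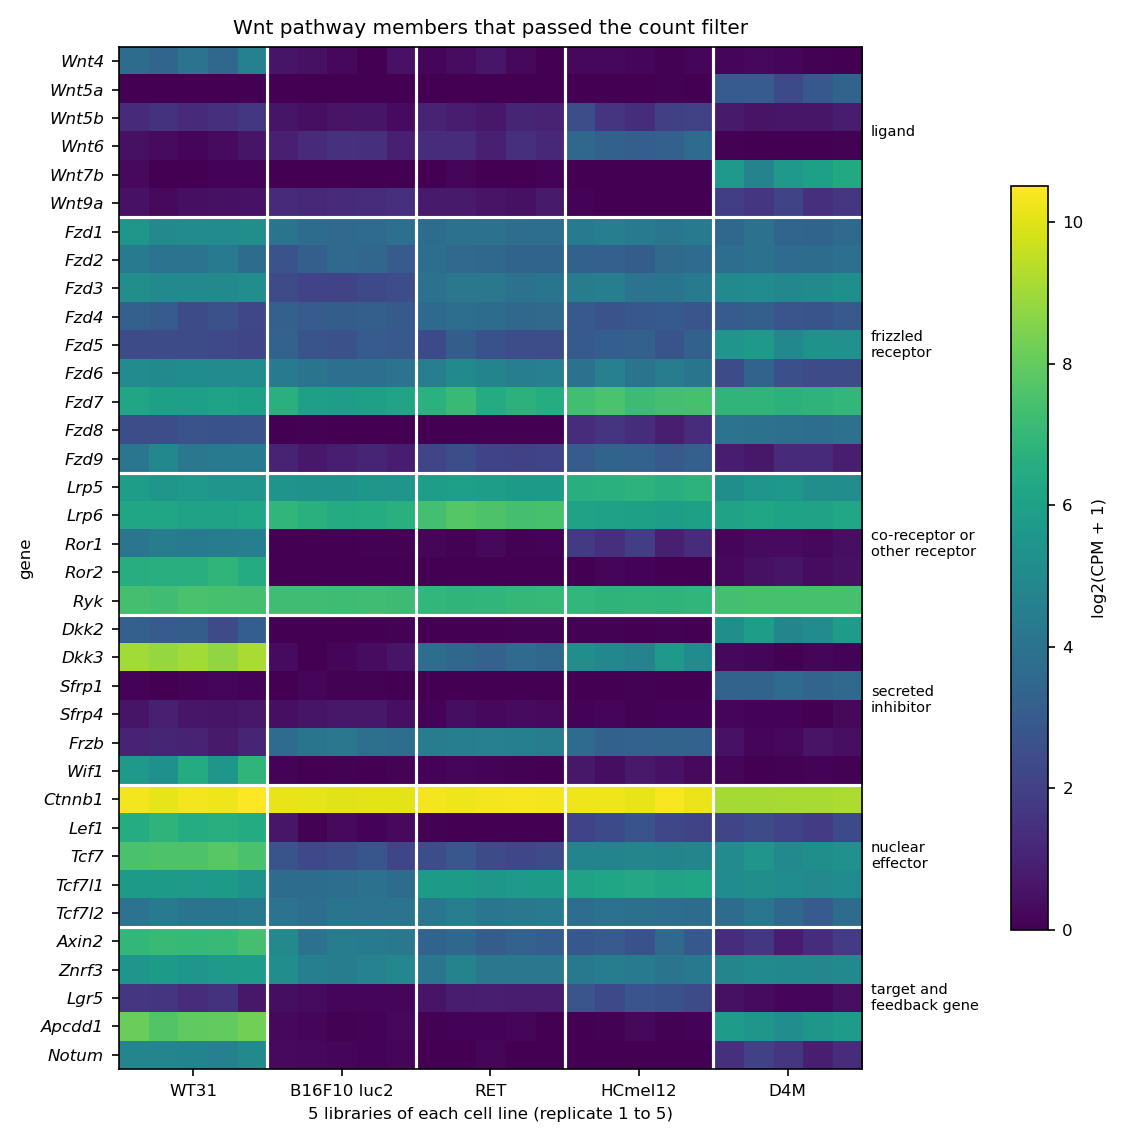
Level of the 36 Wnt pathway members that passed the count filter in each of the 25 libraries, as log2(CPM + 1) by colour, with rows grouped by role and 5 libraries per cell line. Ctnnb1 was high in all lines (560 to 1271 CPM on average), whereas Lef1, Tcf7, Axin2, Apcdd1, Notum, Ror2, Dkk3 and Wif1 were brightest in WT31 and Wnt7b, Wnt5a, Sfrp1 and Dkk2 in D4M.

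To describe which line stood apart, members were counted whose 5 libraries of 1 line all lay above the 20 other libraries. WT31 had 13 such members of 36 (36.1%, all tested genes 9.88%), namely Wnt4, Fzd1, Fzd9, Ror1, Ror2, Dkk3, Wif1, Lef1, Tcf7, Axin2, Znrf3, Apcdd1 and Notum. No member was lowest in all 5 WT31 libraries (all tested genes 7.42%). D4M had 7 members above all others (Wnt5a, Wnt7b, Wnt9a, Fzd5, Fzd8, Dkk2 and Sfrp1, where 16.8% of all tested genes did the same) and 5 below (Wnt6, Fzd6, Frzb, Ctnnb1 and Axin2, all tested genes 11.5%). HCmel12 was highest for 5 members (Wnt6, Fzd7, Lrp5, Tcf7l1 and Lgr5, all tested genes 6.9%) and lowest for Wnt9a (4.26%). RET was highest for Fzd4, Lrp6 and Frzb (all tested genes 5.19%) and lowest for Lef1 (3.34%), where its single count lay beside 1 count in a library of B16F10 luc2. B16F10 luc2 was highest for no member (6.27%) and lowest for Fzd3 and Tcf7l1 (4.79%). With counts scaled by library total alone, WT31 was highest for 14 members, since Ryk was added, and D4M for 6, since Wnt9a was lost. Only 17 of the 36 members had at least 10 counts in every library. Wnt4, Ror2 and Wif1 passed the filter through WT31 alone (at most 14.2, 11 and 16 counts in another library). Wnt5a, Wnt7b and Sfrp1 passed it through D4M alone. For these members the filter itself set the highest line, and their p-values below are no support for it. The numbers above are not given over the 17 alone.

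The groups of metastatic potential were compared over the 36 tested members. None of them was higher in all 15 libraries of HIM-melanoma than in all 10 libraries of LM-melanoma (3.87% of all tested genes were), and none was lower throughout (4.15%). At shares this low over all genes, a count of 0 among 36 is near the background. A test over lines was not made, because 3 lines against 2 cannot reach a two-sided exact permutation p below 0.2.

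The sequences upstream of Lef1 and Axin2 are shown because both genes are used as readouts of LEF/TCF and were highest in WT31. They were taken from the RefSeq promoter table (GRCm38.p6), where a window covers 250 bases before and 50 bases after an annotated start, and the 250 bases before the start are printed on the strand of the gene. The table lists 4 starts of Lef1. The first, at chr3:131110047-131110296, overlaps an exon of the antisense transcript Gm43352 and no exon of Lef1. The last, at chr3:131156044-131156293, lies within the Lef1 gene and overlaps no annotated exon. The Axin2 window at chr11:108920099-108920348 lies outside annotated genes. Lef1 as a whole spans chr3:131110471-131224356 and Axin2 chr11:108920349-108950783, both on the plus strand, in GENCODE M21 (GRCm38). Capitals mark matches to the core TCF motif CTTTGA, here on the opposite strand as TCAAAG.
Lef1, first start: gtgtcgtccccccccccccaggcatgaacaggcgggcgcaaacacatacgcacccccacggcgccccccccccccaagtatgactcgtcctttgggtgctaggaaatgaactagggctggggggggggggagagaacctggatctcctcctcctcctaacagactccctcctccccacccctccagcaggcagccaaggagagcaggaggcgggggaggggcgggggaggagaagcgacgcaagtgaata
Lef1, last start: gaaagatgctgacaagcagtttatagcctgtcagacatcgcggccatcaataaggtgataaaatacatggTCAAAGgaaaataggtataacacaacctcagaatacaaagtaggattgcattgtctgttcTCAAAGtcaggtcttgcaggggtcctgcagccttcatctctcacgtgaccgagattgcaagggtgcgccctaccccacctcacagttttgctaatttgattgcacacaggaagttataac
Axin2: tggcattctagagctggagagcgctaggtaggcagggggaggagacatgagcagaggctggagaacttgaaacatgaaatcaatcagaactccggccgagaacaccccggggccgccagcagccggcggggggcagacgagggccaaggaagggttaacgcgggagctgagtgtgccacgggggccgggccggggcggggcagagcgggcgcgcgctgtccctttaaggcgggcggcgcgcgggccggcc

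The last Lef1 window held matches at -180 and -120 from its start, and the other 3 Lef1 windows and the Axin2 window held none. Of the other members highest in all WT31 libraries that are in the table, Fzd1 (at -242) and Ror1 (at -205) had a match in their window, and Wnt4, Fzd9, Ror2, Wif1 and Tcf7 had none. Of the 54 members, 37 were listed in the promoter table with 47 windows, and 7 of these windows in 7 members held CTTTGA on either strand. Over all genes, 16% of 32851 windows held it, a share near that of the members. The longer motif CTTTGAT was found in 2 member windows and in 3.73% of all windows. The deposited counts are per gene and do not separate the starts of Lef1.

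Among the 5 nuclear effectors, Lef1 and Tcf7 had the widest ranges of line means and were highest in WT31 in every library. Lef1 was at 88.8, 112, 89.1, 96 and 86.2 CPM in WT31. It was at 3.3, 4.18, 5.62, 3.73 and 3.5 CPM in HCmel12 and at 3.53, 4.28, 3.31, 2.58 and 4.08 CPM in D4M. WT31 lay far above both, and HCmel12 and D4M overlapped. In B16F10 luc2 the values of Lef1 were 0.556, 0.0415, 0.206, 0.0825 and 0.192 CPM, and in RET a single count was found in replicate 1 and none in the other 4 libraries. Lef1 was 23.2-fold higher in WT31 than in HCmel12 (log2 fold change 4.55, SE 0.16, limma, Benjamini-Hochberg adjusted p = 7.3e-19). Against the single count of RET, the ratio of the summed counts was 12120 with a 95% counting interval from 2175 to 478740. Counting intervals, here and below, leave out the spread between libraries of a line. HCmel12 did not differ from D4M beyond the spread (log2 fold change 0.19, SE 0.22, adjusted p = 0.45).

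Tcf7 (chr11:52252371-52283014, minus strand), which encodes TCF1, was at 179, 190, 192, 220 and 180 CPM in WT31. The second highest line was D4M with 32.7, 43.8, 31, 36.6 and 39.3 CPM, followed by HCmel12 with 25.8, 25.5, 26.9, 25.9 and 27.5 CPM. No library of WT31 came near these, and each library of D4M was above each of HCmel12. Tcf7 was 5.23-fold higher in WT31 than in D4M (log2 fold change 2.40, SE 0.08, limma adjusted p = 2.8e-19) and 41.1-fold higher than in RET (log2 fold change 5.38, SE 0.14, adjusted p = 2.8e-21). B16F10 luc2 (4.77 ± 1.03 CPM) and RET (4.65 ± 0.912 CPM) overlapped and did not differ in the test (log2 fold change 0.02, SE 0.18, adjusted p = 0.94).

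Tcf7l1, which encodes TCF3 and is known mainly as a repressor of Wnt targets, had another order. It was at 64.8, 73.9, 80.4, 68.6 and 71.9 CPM in HCmel12 and at 12.1, 12.3, 12.9, 14 and 12 CPM in B16F10 luc2. HCmel12 was highest and B16F10 luc2 lowest in all libraries, with a 5.69-fold difference (log2 fold change 2.51, SE 0.09, limma adjusted p = 9.4e-19). RET (50.2 ± 2.29 CPM) and WT31 (49.4 ± 5.02 CPM) did not differ from each other (log2 fold change 0.03, SE 0.07, adjusted p = 0.72), and D4M had 33.2 ± 2.4 CPM. The mRNA of Tcf7l2 (TCF4) had a narrower range, from 11.7 ± 3.34 CPM in D4M to 18.3 ± 2.24 CPM in RET, and passed the test in 6 of 10 comparisons. RET was higher than D4M (log2 fold change 0.69, SE 0.13, adjusted p = 3.1e-05), and lines next to each other in the order of levels did not pass.

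The mRNA of β-catenin itself did not follow Lef1 and Tcf7. Ctnnb1 was at 1299, 1109, 1277, 1213 and 1457 CPM in WT31 and at 1288, 1207, 1272, 1319 and 1271 CPM in RET. These ranges overlapped, and the lines did not differ (log2 fold change of RET over WT31 0.01, SE 0.05, limma adjusted p = 0.94). D4M was lowest with 548, 544, 555, 566 and 587 CPM, below every library of the other 4 lines. Ctnnb1 was 2.27-fold higher in RET than in D4M (log2 fold change 1.18, SE 0.05, adjusted p = 1.4e-16). On the TPM scale, which allows genes to be compared per length, Ctnnb1 had the highest level of all members averaged over the lines (516 TPM). Within WT31, Tcf7 was at 138 TPM, Lef1 at 47.8 TPM, Tcf7l1 at 29.9 TPM and Tcf7l2 at 10 TPM, and in D4M Tcf7 (22.6 TPM) was also above Tcf7l1 (16.4 TPM). In HCmel12 Tcf7l1 (37.7 TPM) was above Tcf7 (16.7 TPM), Tcf7l2 (7.21 TPM) and Lef1 (2.04 TPM). Tcf7 was below both Tcf7l1 and Tcf7l2 in RET (3.04 TPM against 27.5 and 10.5 TPM) and in B16F10 luc2 (3.13 TPM against 6.97 and 8.6 TPM).

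The target and feedback genes were highest in WT31 with the exception of Lgr5. Axin2, a scaffold of the destruction complex and a widely used target of β-catenin, was at 125, 135, 131, 139 and 171 CPM in WT31. B16F10 luc2 followed with 30.1, 14.4, 20.9, 19.6 and 17.3 CPM, and D4M was lowest with 1.61, 2.22, 0.802, 1.6 and 2.51 CPM. These 3 lines did not overlap. Axin2 was 6.86-fold higher in WT31 than in B16F10 luc2 (log2 fold change 2.81, SE 0.14, limma adjusted p = 9.4e-16) and 80-fold higher than in D4M (log2 fold change 6.39, SE 0.31, adjusted p = 3.5e-16). RET (8.87 ± 1.23 CPM) and HCmel12 (7.33 ± 2.32 CPM) did not differ beyond their spread (log2 fold change 0.32, SE 0.22, adjusted p = 0.22).

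Apcdd1, a membrane protein that inhibits Wnt signalling, was divided between lines with and without expression. It was at 275, 198, 246, 251 and 307 CPM in WT31 and at 54.3, 45.8, 34.7, 46 and 55.6 CPM in D4M. In all other libraries at most 0.162 CPM was found. The level in WT31 was 5.41-fold that in D4M (log2 fold change 2.44, SE 0.11, limma adjusted p = 1.3e-16) and 3966-fold that in HCmel12 (95% counting interval 2013 to 9188, from 8 counts in HCmel12). Notum, a secreted enzyme that removes the lipid from Wnt ligands, was at 26.4, 26.6, 25.7, 22.8 and 31.3 CPM in WT31 and at 1.72, 3.11, 2.17, 0.844 and 1.53 CPM in D4M. Without a single count in HCmel12, Notum was at least 1100-fold higher in WT31 when set against 3 counts over the 5 libraries. WT31 exceeded D4M 14.2-fold in Notum (log2 fold change 3.93, SE 0.20, adjusted p = 1.9e-15).

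Znrf3, a ubiquitin ligase that removes frizzled receptors from the membrane, was expressed in all lines and differed less, with 48.8 ± 3.94 CPM in WT31, 29 ± 1.78 CPM in D4M and 18.2 ± 1.93 CPM in HCmel12, which did not differ from RET (log2 fold change of RET over HCmel12 0.03, SE 0.13, limma adjusted p = 0.86). Lgr5, a receptor for R-spondins, was low throughout. It was at 5.9, 3.99, 5.92, 5.27 and 4.51 CPM in HCmel12 and at 2.17, 2.09, 1.51, 1.92 and 0.613 CPM in WT31. HCmel12 was above WT31 in every library, by 3.09-fold on average (log2 fold change 1.73, SE 0.23, limma adjusted p = 2.8e-07). B16F10 luc2 (0.187 ± 0.0917 CPM) and D4M (0.24 ± 0.111 CPM) had the lowest means, and their libraries overlapped.

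**Figure D2:**
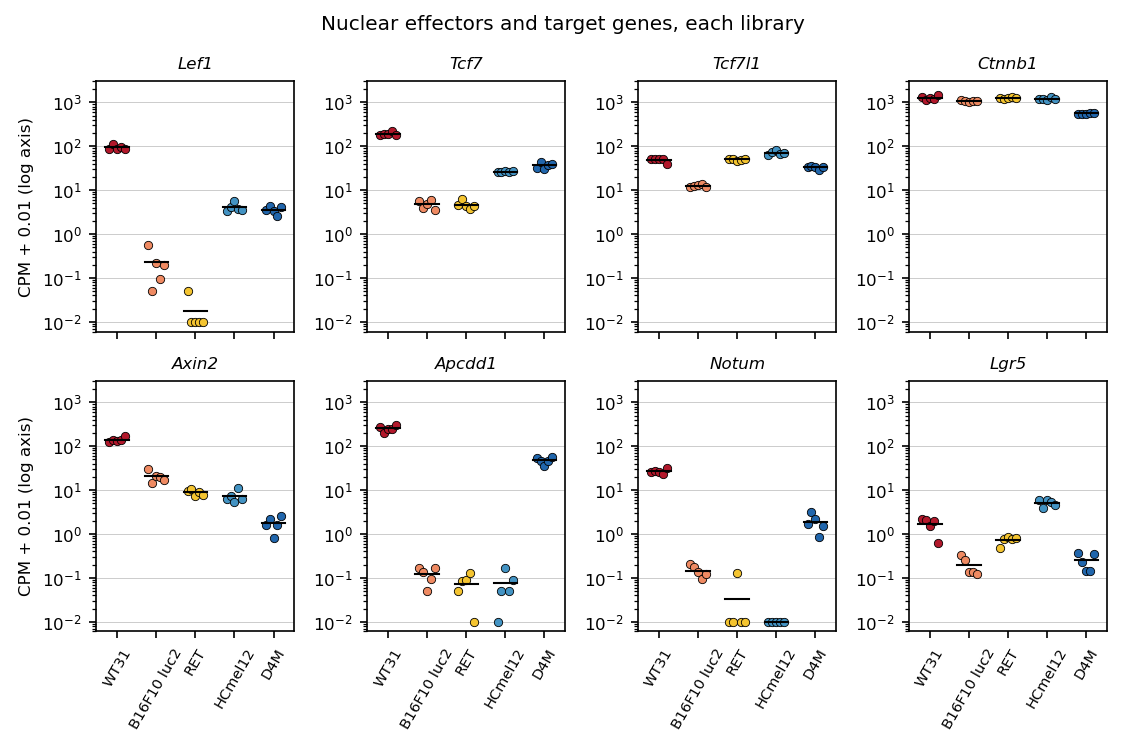
CPM of 4 nuclear effectors (upper row) and 4 target genes (lower row) in each library, drawn on a log axis after adding 0.01 CPM, with a bar at the mean of 5 libraries per cell line. Lef1, Tcf7, Axin2, Apcdd1 and Notum were highest in all 5 libraries of WT31, Tcf7l1 and Lgr5 in those of HCmel12, and Ctnnb1 was lowest in D4M.

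The expressed ligands had their maxima in different lines. Wnt7b (chr15:85535437-85582473, minus strand), a ligand of the canonical branch, was found in D4M with 50.2, 24.7, 48.7, 60.4 and 83.6 CPM. In the other 4 lines at most 0.19 CPM was found in a library, and none in B16F10 luc2 and HCmel12. D4M exceeded HCmel12 at least 2225-fold and WT31 786-fold (95% counting interval 414 to 1721, from 9 counts in WT31). The log2 fold change of D4M over WT31 was 9.73 (SE 0.95, limma adjusted p = 6.8e-10). This p-value is descriptive, since Wnt7b passed the filter through D4M alone. Wnt5a was found in the same line with 7.08, 7.2, 4.19, 6.44 and 9.12 CPM, while the 20 other libraries held 1 count together, in HCmel12 replicate 4. Wnt5a was at least 299-fold higher in D4M than in WT31. At 25 TPM in D4M, Wnt7b had the highest level per length of any ligand in any line, followed by Wnt6 in HCmel12 (7.53 TPM), Wnt4 in WT31 (5.51 TPM) and Wnt5a in D4M (2.1 TPM).

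WT31 expressed another ligand. Wnt4 was at 12.1, 9.91, 15.2, 10.7 and 23.8 CPM in WT31 and at 0.519, 0.377, 0.174, 0 and 0.428 CPM in B16F10 luc2, the second line in the order. WT31 was 47.5-fold higher without overlap (log2 fold change 6.03, SE 0.66, limma adjusted p = 6.8e-09), and the other 4 lines did not pass the test between neighbours in the order. Because Wnt4 passed the filter through WT31 alone, the p-values of WT31 are descriptive. Without B16F10 luc2 replicate 4, the library without counts of Wnt4, the log2 fold change was 5.20 (adjusted p = 8.9e-09), and over all libraries left out singly it was between 5.20 and 6.37. Of the 31-base sequences of Wnt4 transcripts, 5.84% also occur in transcripts of other genes, the highest share of all members. Wnt6 was the ligand of HCmel12, with 10.8, 8.73, 7.7, 8.28 and 11.7 CPM. It was at 1.37 ± 0.305 CPM in RET and 1.35 ± 0.452 CPM in B16F10 luc2, which did not differ from each other (log2 fold change 0.06, SE 0.28, adjusted p = 0.88). HCmel12 was 6.88-fold higher than RET (log2 fold change 2.78, SE 0.22, adjusted p = 1.5e-11), and only 2 counts of Wnt6 were found in D4M.

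The remaining ligands were low. Wnt5b was highest in HCmel12 (2.93 ± 1.25 CPM) and WT31 (1.73 ± 0.346 CPM). Wnt9a was highest in D4M (2.48 ± 0.677 CPM), followed by B16F10 luc2 (1.44 ± 0.166 CPM), and was found in a single library of HCmel12 at 0.0803 CPM. Wls, which carries Wnt proteins to the cell surface, was expressed in all lines at between 126 ± 11.4 CPM in D4M and 189 ± 9.22 CPM in B16F10 luc2. Porcn, which attaches the lipid to Wnt proteins, was lower, from 0.486 ± 0.17 CPM in B16F10 luc2 to 4.78 ± 0.918 CPM in WT31.

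The frizzled receptors were less restricted than the ligands, and 9 of 10 were expressed. Fzd7 had the highest mean TPM of the family (33.1 TPM). It was at 158, 186, 147, 170 and 172 CPM in HCmel12, at 117, 116, 106, 114 and 122 CPM in D4M and at 71.1, 62.6, 59.6, 65.1 and 61.4 CPM in WT31. These 3 lines did not overlap, with a 2.6-fold difference between HCmel12 and WT31 (log2 fold change 1.38, SE 0.12, limma adjusted p = 8.6e-11). In B16F10 luc2 a single library, replicate 1, was at 101 CPM and the other 4 between 58.9 and 69.9 CPM, and B16F10 luc2 did not differ from WT31 (log2 fold change 0.11, SE 0.12, adjusted p = 0.42).

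Fzd8 and Fzd9 had the widest ranges. Fzd8 was at 14.9, 14.8, 13.9, 12.4 and 14.7 CPM in D4M and at 4.78, 4.82, 5.47, 5.19 and 5.36 CPM in WT31. HCmel12 had 1.5 ± 0.423 CPM, RET had no counts, and B16F10 luc2 had a single count. D4M was 2.76-fold above WT31 (log2 fold change 1.46, SE 0.10, limma adjusted p = 8.1e-13) and at least 605-fold above RET. Fzd9 was highest in WT31 with 16.6, 28.9, 17.7, 19.2 and 19.2 CPM, followed by HCmel12 with 7.26, 9.45, 8.88, 6.7 and 8.3 CPM. WT31 was 2.5-fold above HCmel12 without overlap (log2 fold change 1.30, SE 0.14, adjusted p = 4.8e-09).

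Fzd5 was a receptor of D4M, with 43.8, 49.4, 28.9, 41.4 and 38.4 CPM against 7.43 ± 1.16 CPM in HCmel12, the second line (log2 fold change 2.43, SE 0.15, limma adjusted p = 1.2e-13). The other 4 lines lay between 3.58 and 9.01 CPM in all of their libraries. Fzd3 was at 32.3 ± 2.88 CPM in D4M and 32.2 ± 2.81 CPM in WT31 and lowest in B16F10 luc2 (4.29, 3.32, 3.42, 4.04 and 4.61 CPM). D4M and WT31 did not pass the test in Fzd3 with TMM factors, whereas with library size only D4M was lower (log2 fold change -0.22, adjusted p = 0.025). D4M was 8.19-fold above B16F10 luc2 in Fzd3 (log2 fold change 3.03, SE 0.14, adjusted p = 1.6e-16). Of the others, Fzd1 was highest in WT31 (35.3 ± 6.72 CPM) and between 11 and 18.8 CPM on average elsewhere, Fzd6 was lowest in D4M (5.38 ± 2.13 CPM, WT31 32.4 ± 0.743 CPM), Fzd4 was highest in RET (11.7 ± 0.895 CPM), and Fzd2 lay between 8.37 ± 2.18 CPM in B16F10 luc2 and 15.9 ± 2.8 CPM in WT31.

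The Ror receptors, tyrosine kinase-like receptors for Wnt5a, were highest in WT31. Ror2 (chr13:53109312-53286124, minus strand) was at 91.4, 97.3, 95, 118 and 86.8 CPM in WT31. The next line was D4M with 0.184, 0.4, 0.49, 0.267 and 0.383 CPM, and B16F10 luc2 and RET held no counts. WT31 exceeded D4M 282-fold (95% counting interval 206 to 396, log2 fold change 8.11, SE 0.28, limma adjusted p = 4.9e-19) and RET at least 4176-fold. Since Ror2 passed the filter through WT31 alone, this p-value is descriptive. Ror1 was at 16.6, 21, 19.5, 20.8 and 21.8 CPM in WT31 and at 2.41, 1.71, 2.72, 0.888 and 1.51 CPM in HCmel12. The lines did not overlap, and WT31 was 10.8-fold higher (log2 fold change 3.51, SE 0.20, adjusted p = 1.2e-14). Wnt5a, the ligand most often paired with these receptors, had no counts in WT31 and was found in D4M, where Ror1 was at 0.211 ± 0.09 CPM.

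The receptor Ryk had the highest mean TPM of the receptor genes (81.9 TPM) and varied little. It was at 162, 175, 172, 176 and 174 CPM in D4M, at 168, 156, 177, 174 and 171 CPM in WT31 and at 123, 114, 118, 113 and 119 CPM in HCmel12. D4M and WT31 overlapped (log2 fold change 0.03, SE 0.04, limma adjusted p = 0.58), and D4M was 1.47-fold above HCmel12 (log2 fold change 0.55, SE 0.04, adjusted p = 5.3e-12). With scaling by library size alone, which shifts the median of all genes between these lines by 0.22, Ryk was lower in D4M than in WT31 (log2 fold change -0.20, adjusted p = 4.3e-05).

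The co-receptors Lrp5 and Lrp6 were expressed in all lines and had their maxima in different ones. Lrp6 was at 166, 212, 190, 167 and 175 CPM in RET and at 65, 63.1, 61.7, 56.9 and 61.3 CPM in HCmel12. RET was above every other library, with a 1.83-fold difference from B16F10 luc2 (log2 fold change 0.88, SE 0.08, limma adjusted p = 3.1e-10) and a 2.96-fold difference from HCmel12 (log2 fold change 1.56, SE 0.08, adjusted p = 1.5e-15). Lrp5 was at 96, 102, 110, 97.7 and 110 CPM in HCmel12 and at 36.9, 44.6, 47.8, 35.9 and 34.8 CPM in D4M. HCmel12 was 2.58-fold above D4M without overlap (log2 fold change 1.38, SE 0.08, adjusted p = 1.6e-14).

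Of the 10 secreted inhibitors 6 were tested, and each of WT31, D4M and RET had the maximum of at least 1 of them. Dkk3, a member of the Dickkopf family whose action on Wnt signalling depends on the cell type, was at 526, 464, 530, 440 and 573 CPM in WT31. HCmel12 followed with 36, 28.8, 25.1, 50.2 and 32.5 CPM and RET with 13.1, 10.4, 8.75, 11.8 and 10.7 CPM. The 3 lines did not overlap, and WT31 was 14.7-fold above HCmel12 (log2 fold change 3.91, SE 0.14, limma adjusted p = 1.3e-18). B16F10 luc2 (0.23 ± 0.187 CPM) and D4M (0.107 ± 0.0693 CPM) were low and did not differ (log2 fold change 0.69, SE 0.91, adjusted p = 0.5). The level in WT31 was 4762-fold that in D4M (95% counting interval 2726 to 9216, from 12 counts in D4M).

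Wif1, which binds Wnt ligands outside the cell, was at 49.1, 37.8, 87.2, 46.4 and 116 CPM in WT31 and at most at 0.649 CPM in any other library. The WT31 libraries varied widely, yet the lowest was far above the next line, HCmel12 (152-fold on average, 95% counting interval 117 to 202, log2 fold change 7.16, SE 0.69, limma adjusted p = 7.3e-10). The counting interval leaves out that variation, and the p-value is descriptive, since Wif1 passed the filter through WT31 alone. Dkk2, which binds Lrp5 and Lrp6, had its maximum in D4M with 36.7, 57.9, 27.6, 32.6 and 55.1 CPM. WT31 followed with 8.28, 6.99, 7.61, 4.33 and 7.74 CPM. D4M was 6.02-fold above WT31 (log2 fold change 2.56, SE 0.20, adjusted p = 1.1e-11), and no library of the other 3 lines exceeded 0.0484 CPM.

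Sfrp1, which resembles the ligand-binding part of frizzled receptors, was found in D4M with 9.29, 9.24, 11.8, 9.73 and 11 CPM. No other library exceeded 0.115 CPM, and RET had no counts. D4M was 149-fold above WT31 (95% counting interval 78.5 to 328, log2 fold change 7.11, SE 0.36, limma adjusted p = 1.3e-15). Here too the p-value is descriptive, since Sfrp1 passed the filter through D4M alone. Frzb (sFRP3) had another pattern, with 21.5 ± 1.06 CPM in RET, 14.4 ± 2.37 CPM in B16F10 luc2, 9.54 ± 1.34 CPM in HCmel12, 1 ± 0.18 CPM in WT31 and 0.311 ± 0.152 CPM in D4M. WT31 was lower than RET in Frzb (log2 fold change -4.42, SE 0.20, adjusted p = 2.8e-16).

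**Figure D3:**
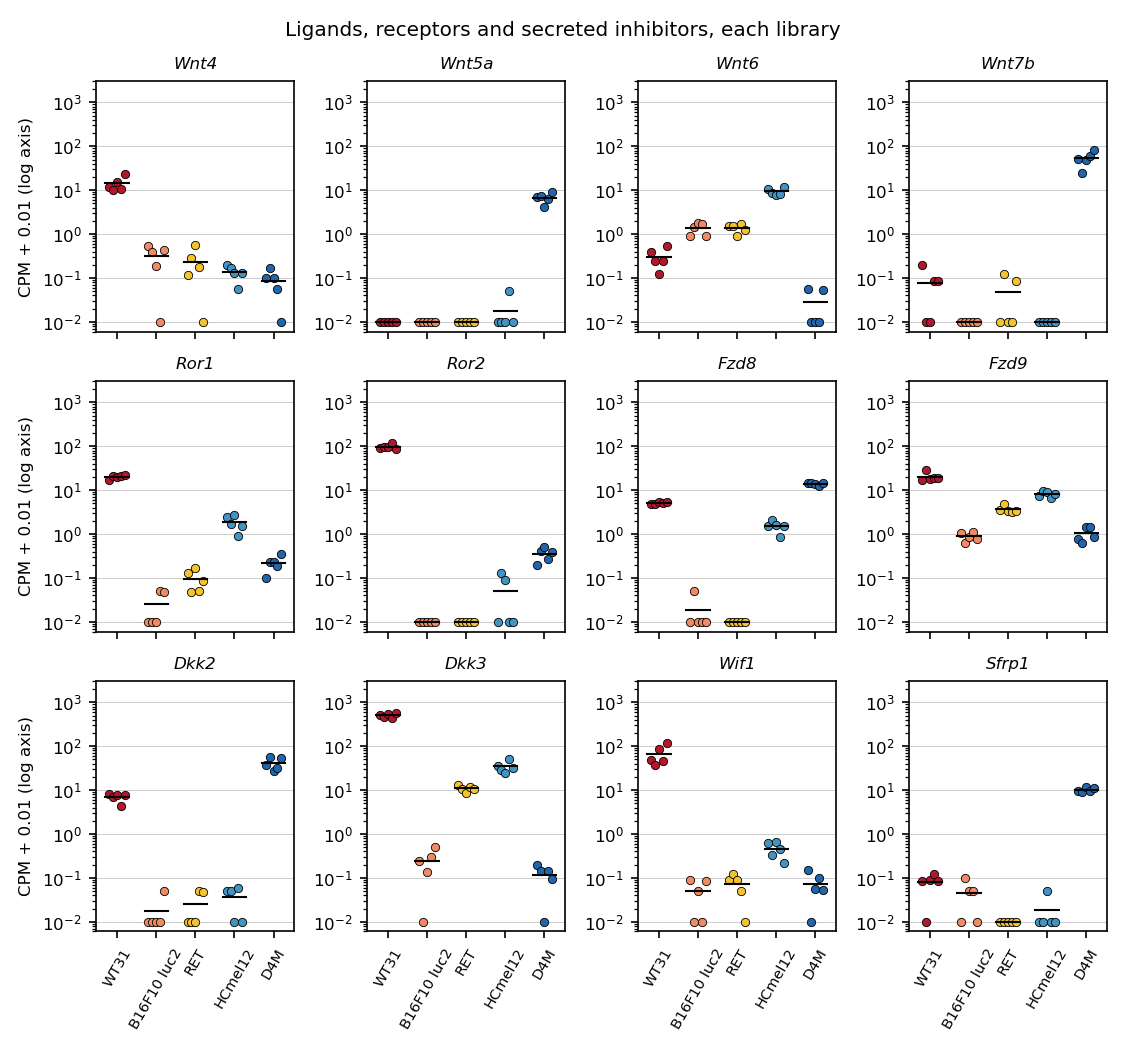
CPM of 4 ligands (Wnt4 to Wnt7b), 4 receptors (Ror1 to Fzd9) and 4 secreted inhibitors (Dkk2 to Sfrp1) in each library, drawn on a log axis after adding 0.01 CPM, so that points at the bottom are libraries without counts, with a bar at the mean of 5 libraries. WT31 was highest for Wnt4, Ror1, Ror2, Fzd9, Dkk3 and Wif1, D4M for Wnt5a, Wnt7b, Fzd8, Dkk2 and Sfrp1, and HCmel12 for Wnt6.

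The members were then compared between lines over the 36 that passed the filter, beside all 15247 tested genes. WT31 differed from D4M in 31 members (86.1%, all genes 76.1%), of which 23 were higher (all genes 37.5%) and 8 lower (38.6%). It differed from HCmel12 in 32 members (88.9%, all genes 70.4%), with 24 higher (36.1%) and 8 lower (34.3%). The comparison with B16F10 luc2 called 29 members (80.6%, all genes 72.8%), 23 higher (36.4%) and 6 lower (36.4%), and that with RET called 30 (83.3%, all genes 73.2%), 23 higher (36.8%) and 7 lower (36.4%). The median log2 fold change of the 36 members was 1.34 against D4M, 1.10 against HCmel12, 1.5 against B16F10 luc2 and 1.05 against RET, where the medians of all tested genes lay between -0.01 and 0.01. Of the 36 members, 19 passed the filter without at least 10 counts in every library. Among the 17 with such counts, WT31 differed from D4M in 12 (10 higher) and from RET in 13 (9 higher), no more than the share called of all genes with such counts (76.7% and 76.6%). It differed from HCmel12 in 15 of the 17 (11 higher, all genes 73.1%) and from B16F10 luc2 in 14 (11 higher, all genes 76.3%). Of all 10497 genes with such counts, 3940 were higher in WT31 than in D4M and 4054 than in RET. Against HCmel12 3984 of them were higher, and against B16F10 luc2 3959. These 4 comparisons share the WT31 libraries.

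For B16F10 luc2 more of the called members were lower than higher. It differed from D4M in 26 members (72.2%, all genes 77.7%), 8 higher (all genes 38.8%) and 18 lower (38.9%). It differed from HCmel12 in 24 members (66.7%, all genes 69.1%), 8 higher (all genes 35.3%) and 16 lower (33.8%). RET differed from D4M in 30 members (83.3%, all genes 77.1%), 14 higher (all genes 38.8%) and 16 lower (all genes 38.3%), a split near that of all genes. With scaling by library size alone, which moves the median of all genes by 0.21 in that comparison, 16 were higher and 15 lower. Under that scaling 7218 of all 15247 tested genes were higher and 4775 lower. RET differed from HCmel12 in 21 members (58.3%, all genes 67.2%), 7 higher (all genes 34%) and 14 lower (33.3%). The median log2 fold change of the members was -0.56 and -0.26 for B16F10 luc2 and -0.09 and -0.37 for RET, in the same order. In B16F10 luc2, compared with RET directly, 7 members were higher (all genes 25.2%) and 16 lower (26.2%), 23 in all (63.9%, all genes 51.5%). HCmel12 differed from D4M in 30 members (83.3%, all genes 72.5%), 14 higher (all genes 35.7%) and 16 lower (36.8%). With scaling by library size alone 16 members were higher and 14 lower, where 6830 of all 15247 tested genes were higher and 4487 lower. With at least 10 counts in every library, between 11 and 15 of 17 members were called in these 6 comparisons. B16F10 luc2 had 12 against D4M (all genes with such counts 78.7%), 12 against HCmel12 (72.8%) and 14 against RET (56.7%). RET had 14 against D4M (77.9%) and 11 against HCmel12 (70.7%), and HCmel12 had 15 against D4M (72.7%).

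At a change of at least 2-fold, 26 members (72.2%) were called between WT31 and D4M, where 36.7% of all tested genes were, and 22 (61.1%) between WT31 and HCmel12, where 30% of all tested genes were. The count was 22 between WT31 and B16F10 luc2 (all genes 31.4%), 23 between WT31 and RET (31.2%) and 22 between HCmel12 and D4M (35.4%). It was 19 and 18 for B16F10 luc2 against D4M and HCmel12 (39.8% and 28.1%) and 24 and 13 for RET (39.2% and 26.6%). For B16F10 luc2 against RET it was 12, the smallest number (all genes 14.3%). The median absolute log2 fold change of the members between WT31 and D4M was 2.61, and that of all tested genes was 0.66. These 2-fold counts and this median are over 36 members, of which 17 had at least 10 counts in every library. Members that passed the filter through 1 line alone, as Wnt7b in D4M and Ror2 in WT31, differ widely wherever that line is compared. Values over the 17 alone are not given, so no conclusion on the group is drawn.

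By role, all 5 nuclear effectors were higher in WT31 than in D4M (all genes 37.5%). Against B16F10 luc2 4 were higher and 1 did not pass (all genes 36.4% higher), against HCmel12 3 were higher, 1 lower and 1 did not pass (36.1%), and against RET 2 were higher and 3 did not pass (36.8%). The 5 tested target genes were all higher in WT31 than in D4M (all genes 37.5%), B16F10 luc2 (36.4%) and RET (36.8%), and against HCmel12 4 were higher (36.1%) and Lgr5 was lower. Of the 9 tested frizzled receptors, 6 were higher, 2 lower and 1 did not pass in WT31 against HCmel12, B16F10 luc2 and RET each (all genes 36.1% to 36.8% higher). Against D4M 3 were higher, 3 lower and 3 did not pass, near the shares of all genes (37.5% higher and 38.6% lower). Of the 6 tested ligands, 3 were higher and 3 lower in WT31 than in D4M (all genes 37.5% and 38.6%). Against each of the other lines 2 were higher and 2 lower, near the shares of all genes (36.1% to 36.8% higher and 34.3% to 36.4% lower).

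**Figure D4:**
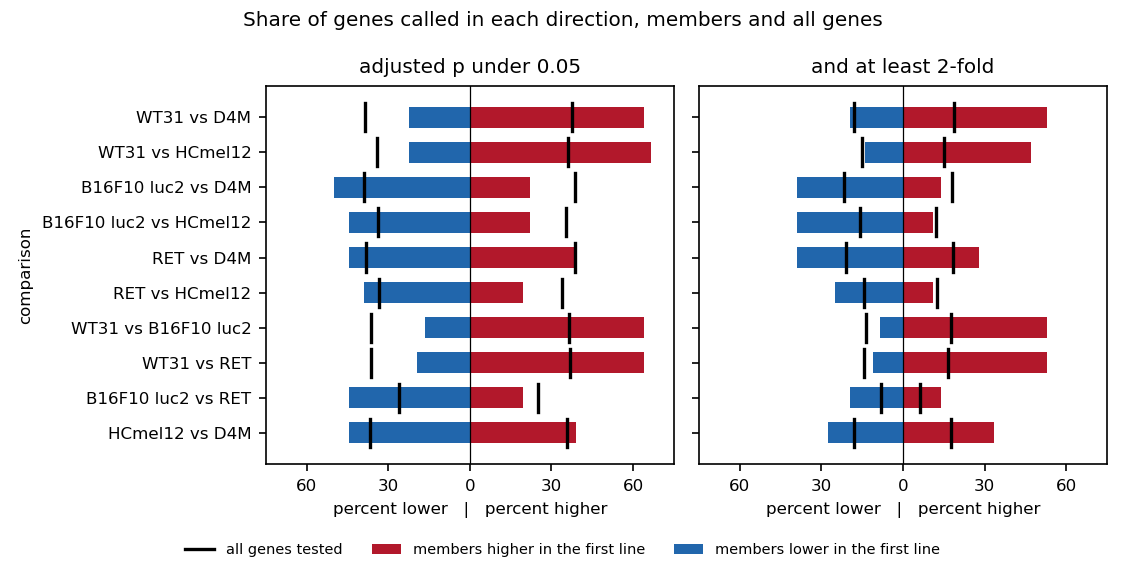
Share of the 36 tested members called higher (red) or lower (blue) in the first line of each of 10 comparisons, at an adjusted p under 0.05 (left) and with at least 2-fold change in addition (right), with black ticks at the share of all 15247 tested genes. In the 4 comparisons of WT31 the share of members called higher was between 63.9% and 66.7%, compared with 36.1% to 37.5% of all genes. Wnt4, Ror2 and Wif1 passed the filter through WT31 alone, and Wnt5a, Wnt7b and Sfrp1 through D4M alone. Only 17 of the 36 members had at least 10 counts in every library, so no conclusion on the group is drawn.

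Of the 67 further pathway genes 59 passed the filter, and 49 of them (83.1%, all genes 76.1%) differed between WT31 and D4M (27 higher, 22 lower), with a median log2 fold change of 0.09. Against HCmel12 48 (81.4%, all genes 70.4%) differed, 30 higher and 18 lower in WT31. In relation to B16F10 luc2, 37 were higher in WT31 and 10 lower (79.7% in all, all genes 72.8%), and in relation to RET 37 were higher and 9 lower (78%, all genes 73.2%). The 13 genes of the dishevelled and destruction complex group were expressed in all lines. Between WT31 and D4M none of them was called at a 2-fold change, where 36.7% of all tested genes were, with 2 higher (all genes 37.5%) and 6 lower (38.6%) in WT31. Against HCmel12 none was called at 2-fold either (all genes 30%), with 2 higher (36.1%) and 6 lower (34.3%). These 2 splits turned with the scaling: library size alone gave 6 higher and 4 lower against D4M, and log2 TPM values gave 5 higher and 3 lower against D4M and 4 higher and 3 lower against HCmel12. Of all called genes, 62.4% were higher in WT31 than in D4M with library size alone and 63.6% with log2 TPM. With log2 TPM, at least 62.7% were higher than in HCmel12. Against B16F10 luc2 6 were higher and 2 lower (all genes 36.4% each), and against RET 7 were higher (36.8%) and 1 lower (36.4%). A 2-fold change was called for 2 of them in B16F10 luc2 (all genes 39.8%) and 2 in RET (39.2%) against D4M, and for 1 each in WT31 against B16F10 luc2 (31.4%), B16F10 luc2 against HCmel12 (28.1%) and HCmel12 against D4M (35.4%). Dvl1, a dishevelled gene, was between 29.3 CPM in B16F10 luc2 and 88.2 CPM in D4M on average, Csnk1a1 on average at 524 CPM in D4M and at a mean of at most 314 CPM in the other lines, and Amer1 between 3.1 CPM in B16F10 luc2 and 8.75 CPM in D4M. Apc was between 80.8 and 120 CPM on average, Axin1 between 50 and 61.6 CPM and Gsk3b between 120 and 166 CPM. Of the 10 co-factors of β-catenin, 9 were higher and none lower in WT31 than in B16F10 luc2 (all genes 36.4% higher) or RET (36.8%). Against HCmel12 6 were higher and 3 lower, and against D4M 3 were higher and 4 lower (5 and 3 with library size alone). Of the 11 planar polarity and non-canonical genes, 9 were higher and 2 lower in WT31 than in D4M (all genes 37.5% and 38.6%). Against HCmel12 and against B16F10 luc2 5 were higher and 4 lower each, and against RET 5 were higher and 5 lower.

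The widest ranges in the surroundings were those of Nkd1 and Nkd2, which are among the other targets. Nkd1, a feedback inhibitor that binds dishevelled, was at 529, 589, 630, 663 and 740 CPM in WT31 and at most at 0.71 CPM in any other library. WT31 exceeded HCmel12 1175-fold in Nkd1 (95% counting interval 919 to 1507, log2 fold change 10.18, SE 0.32, limma adjusted p = 1.5e-19). Nkd2 was at 192 ± 30.8 CPM in WT31 and 52.8 ± 13.1 CPM in HCmel12, with at most 2.31 CPM elsewhere. Sp5, a transcription factor and target of β-catenin, was at 59.9, 79.8, 77.3, 88.1 and 76.7 CPM in WT31, while the 20 other libraries held 1 count in B16F10 luc2 and 1 in RET. Of the 31-base sequences of Sp5 transcripts, 3.96% are shared with other genes. In all 3 genes every library of WT31 was above every library of the other lines.

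Tbx3, Twist1 and Gpc4 had their maxima in D4M. Twist1, a regulator of mesenchymal transition, was at 78.6, 99.2, 74.5, 70.6 and 72.4 CPM in D4M and at 0.289 ± 0.129 CPM in WT31, and no counts were found in the other 3 lines. Tbx3 was at 79.8 ± 12.7 CPM in D4M and 9.14 ± 1.21 CPM in WT31, an 8.72-fold difference (log2 fold change 3.12, SE 0.12, limma adjusted p = 1.7e-18). The proteoglycan gene Gpc4 was at 90.8 ± 12 CPM in D4M, 43.7 ± 4.15 CPM in WT31 and 9.33 ± 0.995 CPM in HCmel12, and a single count was found in B16F10 luc2 and RET together. Ccnd1, which encodes cyclin D1, was high in D4M (2381 ± 233 CPM) and WT31 (1744 ± 164 CPM) and between 240 and 424 CPM on average in the other lines. Mitf did not follow the targets that were highest in WT31, with 416 ± 82.4 CPM in WT31, 434 ± 57.6 CPM in RET, 646 ± 127 CPM in HCmel12, 692 ± 81.6 CPM in B16F10 luc2 and 6.38 ± 0.41 CPM in D4M. WT31 and RET did not differ in Mitf (log2 fold change of RET over WT31 0.07, SE 0.13, adjusted p = 0.62).

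Members of the R-spondin branch, which stabilizes frizzled receptors, were mostly low. Rspo2 was found at 1.72 ± 0.609 CPM in WT31, and no R-spondin reached 1 CPM in another line. Among their receptors, Lgr4 was highest in RET (44.7 ± 1.84 CPM) and WT31 (40.8 ± 4.6 CPM) and lowest in D4M (6.84 ± 0.71 CPM), and Lgr6 was highest in D4M (10.8 ± 4.39 CPM). Ndp, which encodes Norrin, a ligand of Fzd4 that is no Wnt, was at 40.9 ± 1.69 CPM in D4M, 5.31 ± 1.48 CPM in WT31 and 2.01 ± 0.486 CPM in HCmel12, without counts in B16F10 luc2 and RET.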

How the data were processed

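The authors trimmed reads (Trim Galore 0.6.4 per the labels), assigned them to GRCm38.p6 transcripts with kallisto and deposited estimated counts per gene without normalization, together with TPM values scaled by transcript length to 1000000 per library. TPM of D4M replicate 1 was not used here (24 libraries). The submitters' notes name kallisto 0.4.6, and the annotation release is not given in the sources used here.

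Counts of all 25 libraries (24199083 to 25843286 per library) were filtered with filterByExpr (edgeR 4.0.16) by line, which kept 15247 genes, scaled with TMM factors and fitted with voom and limma (3.58.1, R 4.3.3) with a mean per line. Each of 10 pairs of lines was compared with limma's moderated two-sided test, adjusted with the Benjamini-Hochberg method over all tested genes at 0.05. Named folds are ratios of scaled summed counts with exact binomial (Clopper-Pearson) 95% intervals, or lower bounds against 3 counts over a line without counts. These intervals cover counting error only and are too narrow for a difference between lines. Between replicates of HCmel12 the chi-square per degree of freedom reached 78.1. Members with at least 1 CPM were named, and up to 4 per role with the widest range of line means, plus the one with the highest TPM, were given in full, with up to 6 other pathway genes. For these genes the highest, second and lowest line were picked from the same values that were tested. Their p-values are therefore descriptive. Outside that rule, the tests of Frzb, Znrf3, Tcf7l2 and Mitf and the values of Wls, Porcn, Apc, Axin1, Gsk3b, Dvl1, Csnk1a1, Amer1, Ccnd1, Rspo2, Lgr4, Lgr6 and Ndp were chosen after their values were seen. Promoters were matched by symbol. Coordinates are from GENCODE M21 and RefSeq (GRCm38), and 52 of 54 members matched GENCODE M21 with the version of their identifier. Members and lists were chosen with earlier results of these data known. In counts simulated for WT31 against D4M (14636 genes tested), the fit recovered 200 of 200 genes changed 4-fold and called 11 others. The changed genes were drawn from well-counted genes only. All genes had the same dispersion, and the unchanged genes were equal between lines. The simulation therefore cannot speak for genes near the detection floor, and it is simpler than the data.

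Alternatives were library size only, DESeq2 size factors, no filter, at least 10 counts in every library, edgeR's quasi-likelihood and DESeq2's (1.42.0) Wald test on rounded counts, only the lines compared, the replicate number as a block, log2 TPM with pseudocounts of 1 and 0.1, an adjusted p under 0.01, a 2-fold limit in addition, leaving out each library, and leaving out D4M replicate 1 and HCmel12 replicate 4. No replicates were duplicates: the lowest chi-square per degree of freedom between 2 libraries of a line was 5.96. A further allele of the lines is not reported here.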

Additional observations from a re-analysis of the deposited data

Results flagged for a closer look

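A single library lay apart from the other 4 of its line, by Dixon's ratio at the 95% level, in 11 of 125 groups of named genes and markers, and chance alone flags about 1 in 20. Fzd9 was at 28.9 CPM in WT31 replicate 2 (others 16.6 to 19.2 CPM) and at 4.83 CPM in RET replicate 2 (others 3.2 to 3.52 CPM). Fzd7 was at 101 CPM in B16F10 luc2 replicate 1 (others 58.9 to 69.9 CPM). Ryk was at 162 CPM in D4M replicate 1 (others 172 to 176 CPM), Tcf7l1 at 40.5 CPM in WT31 replicate 5 (others 51.2 to 52.3 CPM) and Twist1 at 99.2 CPM in D4M replicate 2 (others 70.6 to 78.6 CPM). Among the melanocyte markers, HCmel12 replicate 4 was apart in Tyr (30.1 CPM, others 6.31 to 9.13 CPM) and Dct (5048 CPM, others 2348 to 2601 CPM), and D4M replicate 1 in Tyrp1 (27 CPM, others up to 2.85 CPM), Dct (10.7 CPM, others up to 1.19 CPM) and Pmel (8.78 CPM, others up to 0.724 CPM).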

How the results depend on the processing

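Of the counts of members called, 368 values under the alternatives were within 1.5 times the reported ones and 12 were not. Over the 36 tested members most of the reported counts could not rise beyond that limit, so this tally is no measure of robustness. With at least 10 counts in every library, 17 members were tested, and WT31 differed from D4M in 12, HCmel12 in 15, B16F10 luc2 in 14 and RET in 13 of them. B16F10 luc2 differed in 12 from D4M (all genes with such counts 78.7%), 12 from HCmel12 (72.8%) and 14 from RET (56.7%). RET differed in 14 from D4M (77.9%) and 11 from HCmel12 (70.7%), and HCmel12 in 15 from D4M (72.7%). Over all 10497 genes that passed this filter, 76.7%, 73.1%, 76.3% and 76.6% were called in the comparisons of WT31 in the order above, so that 12 of 17 members against D4M and 13 of 17 against RET were no more than the share of all genes. With a 2-fold limit in addition, 13 members were called between RET and HCmel12 and 12 between B16F10 luc2 and RET. Leaving out single libraries gave between 31 and 33 members for WT31 against D4M and between 19 and 22 for RET against HCmel12.

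For single genes, 2242 values kept direction and call, and 20 changed sign, all of 3 differences near 0 that did not pass the test. Fzd3 in D4M over WT31 was at a log2 fold change of -0.22 (adjusted p = 0.025) with library size only, -0.004 with only these lines, -0.16 and -0.18 with TPM (pseudocounts 1 and 0.1), and between -0.04 and 0.05 without single libraries. Ryk in D4M over WT31 was at -0.20 (adjusted p = 4.3e-05) with library size only, -0.20 and -0.21 with TPM, and between -0.01 and 0.06 without single libraries. Ctnnb1 in RET over WT31 was at -0.02 with library size only, -0.004 with at least 10 counts, -0.002 with DESeq2, -0.15 with TPM under both pseudocounts, and between -0.04 and 0.05 without single libraries. Which scaling applies was not tested.

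Library size alone moved the median log2 fold change of all genes to 0.22 between WT31 and D4M, 0.21 between RET and D4M, 0.17 between HCmel12 and D4M and 0.15 between B16F10 luc2 and D4M. The share of called genes that were higher in WT31 than in D4M was 49.3% with TMM factors and 62.4% with library size only, and for members 74.2% and 77.1%. With TPM (pseudocount 1), 63.6% of called genes were higher in WT31 than in D4M and 63.2% than in HCmel12 (51.3% with TMM factors), and for HCmel12 against D4M library size only gave 60.4%, compared with 49.2%.

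Replicate numbers did not pair the libraries: correlations of deviations between libraries of the same number lay between -0.0909 and 0.104, and 6 of 25 libraries correlated best with their own number. With the replicate number as a block, the members called were 31 for WT31 against D4M (all genes 76.2%), 33 against HCmel12 (70.6%), 30 against B16F10 luc2 (73%) and 30 against RET (73.3%). The 18 members removed by the filter have no test, and whether more depth would give one was not tested.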
